A study of Sus scrofa with 12 samples.

Results

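Wnt and Notch pathway genes were followed in epithelial cells of the pig oviduct, before and after the cells had formed spheroids. The genes were chosen by symbol, with earlier results of these data known. Every row named as a Wnt ligand, Frizzled or ROR receptor, R-spondin or its LGR receptor, SFRP antagonist, DKK1, DKK2 or DKK4 was taken. So was every row named as AXIN, RNF43, NKD1, NOTUM, PORCN, TCF/LEF factor, Notch receptor, Jagged or Delta-like ligand, LFNG, MAML or HES/HEY factor. This gave 64 genes of the 30461 gene rows, 47 of the Wnt and 17 of the Notch pathway. Poly(A) mRNA primed with oligo-dT, turned into cDNA and tagmented was sequenced for 12 libraries, 4 in each of 3 groups. Fresh cells, as they are called here, were single cells scraped from the oviduct, and spheroids, which are cultured clusters of cells, had been formed either in DMEM/F12 or in a medium named only incubation medium. The library names of the DMEM/F12 spheroids carry FBS and those of the other spheroids Diff, and the labels explain neither. They give no breed, age, cycle stage, time in culture or number of animals, and list all 12 libraries as epithelial cells of the oviduct. Nothing in them says that replicates came from separate animals, so p-values measure the spread between these libraries.

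Wnt proteins are secreted lipid-modified ligands that bind Frizzled receptors, and in the canonical branch the signal stabilises beta-catenin, which then acts with TCF/LEF factors on target genes. LGR receptors bind R-spondins and protect Frizzleds from the ubiquitin ligase RNF43. Notch receptors are cut after contact with a Jagged or Delta-like ligand on a neighbouring cell, and the released fragment acts with RBPJ and MAML proteins to switch on HES and HEY repressors. In ciliated epithelia Notch signalling is known to favour secretory over multiciliated fate, and Wnt and Notch signals are both used to maintain oviduct epithelial cells in organoid culture.

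Library totals ranged from 5045187 to 6026881 counts in fresh cells, from 7583552 to 8068187 in DMEM/F12 spheroids and from 7585780 to 8603774 in incubation medium spheroids. Levels below are CPM, counts scaled to a common library total, and 3 counts correspond to 0.348 to 0.588 CPM. As a check of the labelled cell type, EPCAM averaged 904 ± 112 (SD, n = 4), 628 ± 125 and 715 ± 148 CPM in fresh cells, DMEM/F12 spheroids and incubation medium spheroids, while KRT7, KRT19 and PAX8 had no named row. EPCAM was called lower in DMEM/F12, where CDH1, KRT18, KRT8 and CLDN4 were called higher. In incubation medium EPCAM was not called, CDH1, KRT18 and KRT8 were higher and CLDN4 lower. The 5 epithelial markers with a row (of 6) summed to 3725 to 4370, 5956 to 7392 and 4141 to 6145 CPM. Summed CPM of the 4 multiciliated markers with a row (of 9) was 1450 to 1685 in fresh cells, 273.5 to 453 in DMEM/F12 and 226 to 295 in incubation medium, and all 4 were called lower in each medium. Of the secretory markers, 4 of 7 had a row and summed to 18930 to 29960, 984 to 2015 and 963 to 2010 CPM: OVGP1, the oviduct glycoprotein, and SLPI were called lower in both media, MUC1 higher, and CRISP3 was at 0 in all libraries. The 6 stromal and smooth muscle markers with a row (of 10) summed to 60.2 to 94.99, 12.7 to 35.5 and 7.26 to 13.0 CPM. DES was at 0 in fresh cells, and DCN, LUM, MYH11 and PDGFRB had no row. COL1A2 and COL3A1 were called lower in both media, COL1A1 and PDGFRA only in incubation medium, and ACTA2 in neither. For 5 endothelial markers (of 7) the sums were 41.6 to 57.5, 136 to 252 and 91.2 to 148 CPM, with VWF at 0 in all fresh and DMEM/F12 libraries. The 4 leukocyte markers with a row (of 8) summed to 9.54 to 14.1, 4.08 to 7.67 and 3.09 to 7.61 CPM, with MS4A1 at 0 in fresh cells. PTPRC was called lower in both media. CD14 was called higher in incubation medium only, at an adjusted p that rounds to 0.05 (edgeR). The 5 proliferation markers (of 7) summed to 18.8 to 32.4, 225 to 260 and 266 to 387 CPM. The part of these shifts in the changes below was not tested, and in bulk RNA fewer cells of a type and less RNA per cell cannot be told apart.

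Most of the Wnt and Notch genes chosen by symbol that could be tested were called lower in spheroids than in fresh cells. In none of the further pathway lists given below were most tested genes called lower. Of the 64 genes, 37 passed the filter on low counts, 23 Wnt and 14 Notch genes; the filter favours genes that are high in some group, so the counts describe these 37 only. In DMEM/F12 against fresh cells 27 of the 37 were called (70.6% of all tested genes), 21 of them lower and 6 higher (edgeR, adjusted p under 0.05), where 35.6% of all 14080 tested genes were lower and 35.1% higher. In incubation medium against fresh cells 31 were called (71.7% of all tested genes), of which 26 were lower and 5 higher, where 35.9% of all tested genes were called lower and 35.8% higher. The median log2 fold change of the 37 was -0.85 in DMEM/F12 and -0.88 in incubation medium, against -0.015 and -0.0064 over all tested genes. Groups were free of overlap for 25 and 28 of these 37 genes, where the same held for 65.4% and 65.0% of all tested genes. The fresh libraries are shared by these comparisons.

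**Figure D1:**
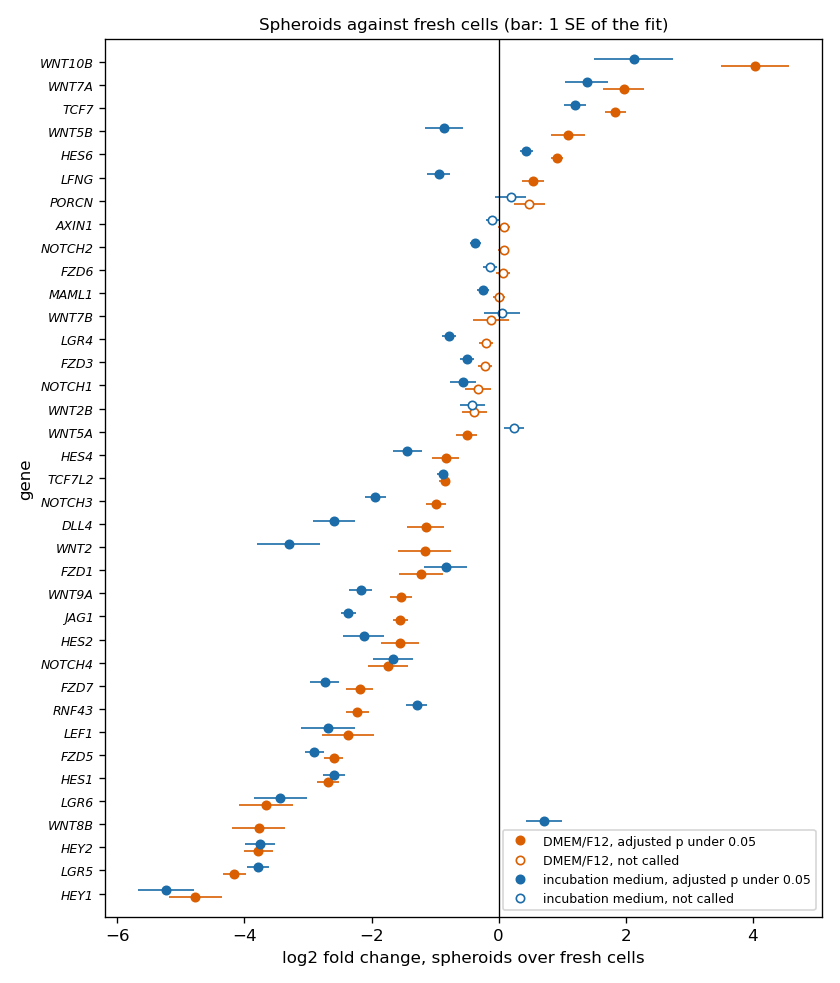
Log2 fold change of each of the 37 tested Wnt and Notch genes in DMEM/F12 spheroids (orange) and incubation medium spheroids (blue) over fresh cells, sorted by the DMEM/F12 value; bars are 1 standard error of the fit and open points were not called. HEY1 lies lowest at -4.78 and -5.23, and WNT10B highest at 4.04 and 2.12.

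Among the Notch genes, 9 of 14 tested were called lower and 2 higher in DMEM/F12 spheroids, and 13 were lower and 1 higher in incubation medium spheroids. The shares over all tested genes were 35.6% lower and 35.1% higher in DMEM/F12, and 35.9% and 35.8% in incubation medium. HEY1, HEY2 and HES1, the repressors that Notch signalling is best known to induce, had the lowest log2 fold changes of these 14 genes in DMEM/F12. The ligand JAG1 and the receptors NOTCH3 and NOTCH4 fell in both media. HES6 rose in both, and LFNG rose in DMEM/F12 and fell in incubation medium.

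NOTCH1 (ENSSSCG00025013442) measured 10.6, 10.6, 5.98 and 13.3 CPM in fresh replicates 1 to 4, 7.54, 8.83, 8.47 and 7.44 in DMEM/F12 spheroids, and 6.56, 7.88, 5.78 and 7.25 in incubation medium spheroids. The groups overlapped, since fresh replicate 3 lay below all DMEM/F12 libraries. Against fresh cells the log2 fold change was -0.33 (SE 0.20, adjusted p = 0.16) in DMEM/F12 and -0.56 (SE 0.20, adjusted p = 0.0235) in incubation medium. The second call was lost when low genes were not filtered out (adjusted p = 0.0516) and without fresh replicate 1, 2 or 4 or incubation medium replicate 1 or 3 (adjusted p 0.052 to 0.0972; range over all alternatives 0.00116 to 0.0972). Without fresh replicate 3 the DMEM/F12 value was called too, at -0.50 (adjusted p = 0.0127; range over all alternatives 0.0127 to 0.477).

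NOTCH2 (ENSSSCG00025025083) measured 154, 141.8, 152.6 and 180.0 CPM in fresh cells and 158, 147.9, 178 and 179.7 in DMEM/F12 spheroids, with overlapping groups and no call (log2 fold change 0.08, adjusted p = 0.451). In incubation medium it measured 117.6, 121.6, 117.9 and 130.5 CPM, below every fresh library (log2 fold change -0.37, SE 0.09, adjusted p = 0.00237).

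NOTCH3 (ENSSSCG00025065460) fell in both media, and further in incubation medium. It stood at 48.2, 46.8, 57.2 and 68.5 CPM in fresh cells, at 22.6, 25.8, 32.5 and 30.2 in DMEM/F12 and at 12.8, 12.2, 13.9 and 18.7 in incubation medium. No library of any group overlapped another group. The log2 fold changes against fresh cells were -0.99 (SE 0.16, adjusted p = 5.54e-05) and -1.94 (SE 0.17, adjusted p = 1.24e-07).

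NOTCH4 (ENSSSCG00025031704), a receptor known mainly from endothelium, measured 13.4, 11.8, 14.4 and 6.46 CPM in fresh cells. It was at 5.47, 3.60, 2.38 and 2.28 CPM in DMEM/F12 and at 5.25, 3.47, 3.20 and 2.55 in incubation medium, all below the lowest fresh library. The log2 fold changes were -1.74 (adjusted p = 0.00018) and -1.66 (adjusted p = 0.000257). Of the 5 endothelial markers with a row, PECAM1 was called lower and KDR and CDH5 higher in each medium. TEK did not pass the filter and averaged 1.5 CPM in fresh cells, 0.45 in DMEM/F12 and 0.51 in incubation medium. All its spheroid libraries lay below the fresh ones. VWF had at most 1 count in any library. The list thus did not move one way, and the part of endothelium in the NOTCH4 result was not tested.

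JAG1 (ENSSSCG00025069417), a Notch ligand, was at 188.8, 208.3, 265.2 and 244.8 CPM in fresh cells. It was at 75.0, 77.8, 83.6 and 74.1 CPM in DMEM/F12 and at 52.0, 40.7, 40.4 and 42.3 in incubation medium. The 3 groups formed separate steps with no overlap, at log2 fold changes of -1.55 (SE 0.11, adjusted p = 2.89e-08) and -2.37 (SE 0.12, adjusted p = 8.46e-10) against fresh cells. DLL4, a Delta-like ligand, averaged 6.23 ± 2.07 CPM in the fresh group, 2.81 ± 0.82 in DMEM/F12 and 1.03 ± 0.41 in incubation medium, and was called lower in both (log2 fold change -1.15 and -2.59, adjusted p = 0.0028 and 7.72e-06). DLL1 was not tested and had 4 to 7 counts in the fresh libraries, 1 to 6 in DMEM/F12 and 1 to 2 in incubation medium. Without the filter it was called lower in both media (log2 fold change -1.47 and -2.10, adjusted p = 0.0382 and 0.00698).

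LFNG (ENSSSCG00025066359), the Fringe glycosyltransferase that modifies Notch receptors, moved in opposite directions in the media. It measured 9.74, 9.86, 12.5 and 14.1 CPM in fresh cells, 18.5, 15.9, 19.6 and 13.2 in DMEM/F12 and 6.92, 5.47, 6.77 and 4.70 in incubation medium. Only DMEM/F12 replicate 4 reached into the fresh range, and all incubation medium libraries lay below it. Against fresh cells it changed by 0.54 on the log2 scale (SE 0.17, adjusted p = 0.0119) in DMEM/F12 and -0.94 (SE 0.19, adjusted p = 0.000385) in incubation medium. The coactivator MAML1 averaged 24.7 ± 2.47, 24.9 ± 1.14 and 20.8 ± 1.39 CPM in fresh cells, DMEM/F12 and incubation medium. It was called lower in incubation medium (log2 fold change -0.25, adjusted p = 0.0318), a call lost under 11 of the 18 alternatives that tested it (adjusted p up to 0.195), and not called in DMEM/F12 (0.01, adjusted p = 0.929).

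**Figure D2:**
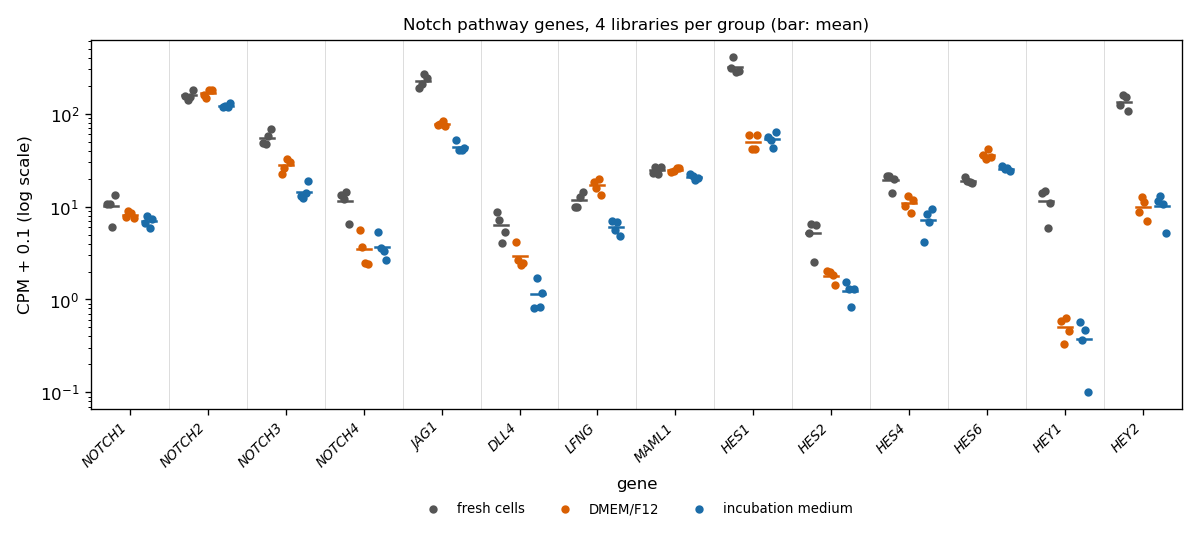
CPM (plus 0.1, log axis) of the 14 tested Notch pathway genes in each library of fresh cells (grey), DMEM/F12 spheroids (orange) and incubation medium spheroids (blue); bars are group means of 4 libraries. HEY1, HEY2 and HES1 drop in both kinds of spheroid, whereas HES6 lies higher in both than in fresh cells.

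HES1 (ENSSSCG00025037926), a basic helix-loop-helix repressor, measured 310.2, 410.2, 278.1 and 287.5 CPM in fresh cells. It measured 58.9, 41.6, 41.2 and 58.5 CPM in DMEM/F12 and 56.4, 51.4, 42.6 and 62.9 in incubation medium. Every spheroid library was below every fresh library, at log2 fold changes of -2.68 (SE 0.17, adjusted p = 6.48e-09) and -2.59 (SE 0.17, adjusted p = 8.12e-09).

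HEY2 (ENSSSCG00025065751), a related repressor, went from 123, 159, 152.2 and 106.9 CPM in fresh cells to 8.76, 12.6, 10.98 and 6.96 in DMEM/F12 and 11.3, 12.8, 10.6 and 5.10 in incubation medium. The spheroid means were 7.25% and 7.36% of the fresh mean, with log2 fold changes of -3.78 (SE 0.23, adjusted p = 5.1e-09) and -3.76 (SE 0.23, adjusted p = 5.46e-09).

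HEY1 (ENSSSCG00025010055) had the lowest log2 fold change of all 37 genes in both media. It stood at 13.9, 14.7, 5.80 and 10.97 CPM in fresh cells, at 0.487, 0.232, 0.529 and 0.360 in DMEM/F12 and at 0.477, 0.267, 0.369 and 0 in incubation medium. The spheroid values rest on 13 and 9 counts summed over 4 libraries, against 248 in fresh cells. The ratio of the summed levels was 28.7-fold lower in DMEM/F12 (95% interval 16.4 to 54.6, exact, counting error only) and 39.8-fold lower in incubation medium (20.6 to 88.0). The fitted log2 fold changes were -4.78 (SE 0.42, adjusted p = 1.66e-07) and -5.23 (SE 0.44, adjusted p = 1.17e-07).

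HES6 (ENSSSCG00025075080), a family member known to oppose HES1, moved the other way. It measured 20.7, 19.0, 18.1 and 17.8 CPM in fresh cells, 35.6, 32.2, 41.2 and 34.1 in DMEM/F12 and 27.3, 25.4, 25.7 and 23.9 in incubation medium, with no overlap between any groups. The log2 fold change was 0.92 (SE 0.10, adjusted p = 1.37e-06) in DMEM/F12 and 0.43 (SE 0.10, adjusted p = 0.00138) in incubation medium. HES2 and HES4 fell in both media, HES2 by log2 fold changes of -1.55 and -2.12 (adjusted p = 0.000347 and 3.41e-05) and HES4 by -0.83 and -1.44 (adjusted p = 0.00322 and 4.95e-05). HES5 had no count in any library and HEYL 1 count in all.

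Of a list of 33 other Notch pathway components, 24 were tested. In DMEM/F12 10 were called higher and 6 lower (median log2 fold change 0.009), and in incubation medium 8 higher and 8 lower (median 0.03). Over all tested genes 70.6% and 71.7% were called, so the counts for these components do not stand above that background. Among those called, APH1A, a gamma-secretase subunit, rose from 134.3 CPM in fresh cells to 216.1 and 209.2, and ITCH, a ubiquitin ligase, from 34.4 to 104.6 and 175. PSENEN averaged 97.15, 110.4 and 102.0 CPM in fresh cells, DMEM/F12 and incubation medium and was not called (adjusted p = 0.0775 and 0.494). RBPJ, the DNA-binding partner of Notch, averaged 97.2 CPM in fresh cells, 86.8 in DMEM/F12 and 74.2 in incubation medium. In DMEM/F12 it just missed a call (edgeR, log2 fold change -0.16, adjusted p rounding to 0.05). In incubation medium it was called lower (-0.39, adjusted p = 0.000178).

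Wnt ligands went in several directions. Of 19 ligand genes, 9 were tested; in DMEM/F12 3 rose (WNT5B, WNT7A and WNT10B) and 4 fell (WNT2, WNT5A, WNT8B and WNT9A). In incubation medium 3 rose (WNT7A, WNT8B and WNT10B) and 3 fell (WNT2, WNT5B and WNT9A). The background shares were 35.1% up and 35.6% down in DMEM/F12, and 35.8% up and 35.9% down in incubation medium. These 9 ligands are too few to tell their mix of directions apart from those shares.

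WNT5B (ENSSSCG00025054083), a ligand usually counted in the noncanonical branch, measured 5.04, 7.17, 9.16 and 7.64 CPM in fresh cells. It measured from 10.9 to 24.9 CPM in DMEM/F12 (replicates 1 and 2 at 10.9 and 11.4, replicate 3 highest and replicate 4 next), all above the fresh libraries, and 4.30, 3.60, 3.08 and 4.97 in incubation medium, all below them. The log2 fold change was 1.10 (SE 0.27, adjusted p = 0.00204) in DMEM/F12 and -0.86 (SE 0.30, adjusted p = 0.018) in incubation medium. The second call was lost without fresh replicate 3 (-0.72, adjusted p = 0.0607) and without incubation medium replicate 3 (-0.73, adjusted p = 0.0568), with adjusted p from 0.00373 to 0.0607 over all alternatives.

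WNT5A (ENSSSCG00025068000), its closest relative, stood at 13.7, 15.6, 14.0 and 15.5 CPM in fresh cells, at 11.2, 9.41, 7.94 and 12.8 in DMEM/F12 and at 21.4, 15.2, 17.7 and 15.3 in incubation medium. It was thus below all fresh libraries in DMEM/F12 (log2 fold change -0.50, SE 0.16, adjusted p = 0.012) and overlapped them in incubation medium (0.25, SE 0.16, adjusted p = 0.173).

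WNT8B (ENSSSCG00025055901) was singled out after its values were seen. It measured 6.44, 5.38, 5.42 and 3.72 CPM in fresh cells, 0.122, 0.697, 0.529 and 0.120 in DMEM/F12 and 9.54, 6.14, 11.8 and 6.85 in incubation medium. The DMEM/F12 libraries lay below all others, with 12 counts in total against 115 in fresh cells, 14.4-fold lower (95% interval 7.93 to 28.7). The log2 fold change was -3.78 (SE 0.42, adjusted p = 1.94e-06) in DMEM/F12. In incubation medium it was 0.71 (SE 0.29, adjusted p = 0.0376), with 1 library inside the fresh range, and this call was lost without fresh replicate 2, 3 or 4 or incubation medium replicate 1 or 3 (adjusted p 0.0607 to 0.123; range over all alternatives 0.0124 to 0.123).

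WNT10B (ENSSSCG00025018862), a canonical ligand, was likewise chosen after its values were seen. It had 1 to 4 counts in the fresh libraries, 33 to 105 in DMEM/F12 and 8 to 28 in incubation medium. Its levels were 0.174, 0.717, 0.561 and 0.392 CPM in fresh cells, 6.32, 7.20, 13.9 and 3.96 in DMEM/F12 and 1.55, 1.07, 3.44 and 2.15 in incubation medium. The 3 groups did not overlap, and the summed levels were 16.8-fold (95% interval 8.97 to 35.4) and 4.50-fold (2.30 to 9.83) higher than in fresh cells. The adjusted p was 1.1e-05 and 0.00699. WNT7A, which maintains the identity of the female reproductive tract in mice, averaged 1.62 ± 0.78, 6.38 ± 2.17 and 4.25 ± 0.45 CPM in fresh cells, DMEM/F12 and incubation medium (log2 fold change 1.97 and 1.39, adjusted p = 8.24e-05 and 0.00194).

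WNT2 (ENSSSCG00025066880), a ligand often made by stroma, stood at 24.9, 30.7, 14.4 and 14.3 CPM in fresh cells, at 10.7, 11.04, 2.38 and 13.3 in DMEM/F12 and at 3.70, 1.74, 0.615 and 2.42 in incubation medium. Replicate 3 was the lowest of its group in both media. The log2 fold change was -1.16 (SE 0.42, adjusted p = 0.0223) in DMEM/F12 and -3.30 (SE 0.50, adjusted p = 3.44e-05) in incubation medium. The DMEM/F12 call was lost without fresh replicate 1 (-1.07, adjusted p = 0.0549) or 2 (-0.92, adjusted p = 0.0844), with adjusted p from 0.000749 to 0.0844 over all alternatives. Summed stromal markers in the DMEM/F12 libraries were 34.2, 28.7, 12.7 and 35.5 CPM and in incubation medium 9.43, 11.1, 7.26 and 13.0, so replicate 3 was lowest there too. In DMEM/F12 COL1A1 made up most of the sum, at 6.88 CPM in replicate 3 and 21.96 to 30.49 in the others. COL1A1 and COL3A1 were lowest in replicate 3 in both media. Other markers were not: COL1A2 was highest in replicate 3 of DMEM/F12 and PDGFRA in replicate 3 of incubation medium. The part of stroma in the WNT2 result was not tested.

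WNT9A averaged 12.4 ± 0.74 CPM in fresh cells, 4.25 ± 0.84 in DMEM/F12 and 2.73 ± 0.46 in incubation medium, and fell in both (log2 fold change -1.54 and -2.17, adjusted p = 1.8e-06 and 9.61e-08). WNT2B averaged 77.5 ± 10.3, 59.4 ± 21.1 and 58.0 ± 7.08 CPM and was not called (log2 fold change -0.38 and -0.42, adjusted p = 0.0975 and 0.0711). With the replicate block WNT2B was called lower in both media (-0.42 and -0.43, adjusted p = 0.0246 and 0.0227; ranges over all alternatives 0.00442 to 0.305 and 0.00724 to 0.174). WNT7B was at 4.68 ± 0.16, 4.30 ± 1.72 and 4.87 ± 1.38 CPM and was not called in either medium (adjusted p = 0.725 and 0.869). PORCN, the acyltransferase that lipidates Wnt proteins, averaged 7.46 ± 1.71, 10.4 ± 0.87 and 8.49 ± 3.16 CPM and was not called (adjusted p = 0.0831 and 0.491). With the block it was called in DMEM/F12 (log2 fold change 0.50, adjusted p = 0.0386). It was also called there with library totals, without the filter, with only the groups compared, and without incubation medium replicate 1 or 3. Its adjusted p in DMEM/F12 ranged from 0.0283 to 0.218 over all alternatives.

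**Figure D3:**
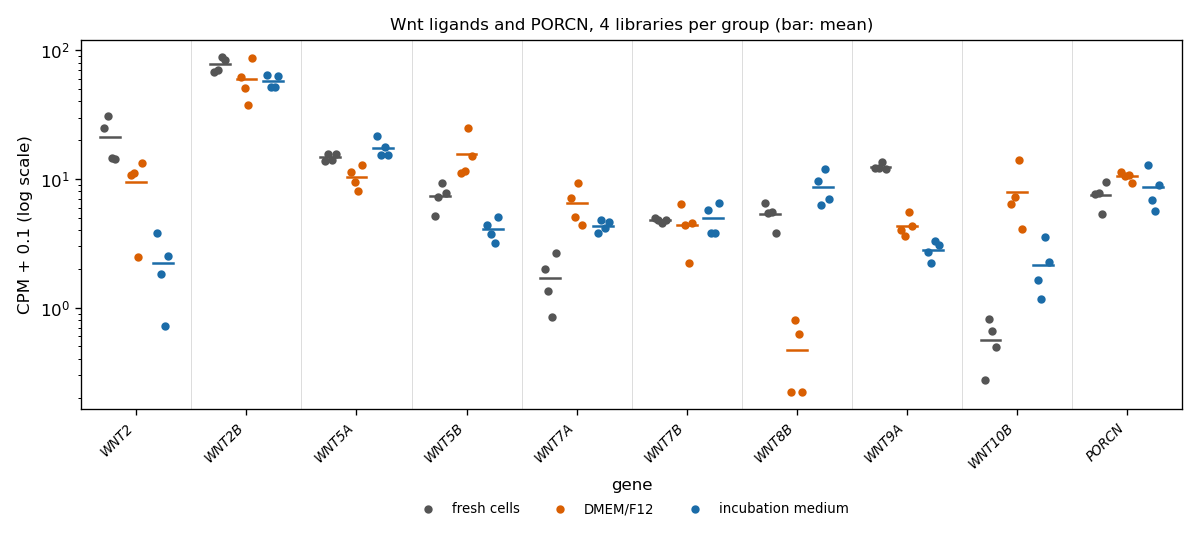
CPM (plus 0.1, log axis) of the 9 tested Wnt ligands and PORCN in each library; colours mark fresh cells (grey), DMEM/F12 (orange) and incubation medium (blue), and bars are group means of 4 libraries. All DMEM/F12 libraries lie below 1 CPM for WNT8B, and WNT10B lies above the fresh cells in both media.

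In the RefSeq gene order of the Sscrofa11.1 pig assembly, used here for gene order only, 4 pairs of the 64 genes are direct neighbours among protein-coding genes. WNT10B lies beside WNT1, and WNT1 had 1 count in all 12 libraries. WNT9A lies beside WNT3A, which had 2 counts in all. The other neighbours, WNT3 beside WNT9B and WNT6 beside WNT10A, had at most 4 counts in any library.

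The 5 tested Frizzled receptors fell or were not called. FZD9 had at most 3 counts in any library, and FZD2, FZD4, FZD8 and FZD10 had no named row. FZD5 (ENSSSCG00025020877) measured 184.8, 180.2, 219.4 and 241.9 CPM in fresh cells, 44.0, 30.0, 29.2 and 33.1 in DMEM/F12 and 31.6, 23.9, 26.9 and 27.9 in incubation medium. All spheroid libraries were far below the fresh ones, with log2 fold changes of -2.60 (SE 0.14, adjusted p = 1.98e-09) and -2.90 (SE 0.15, adjusted p = 8.51e-10). FZD7 (ENSSSCG00025014696) went from 28.0, 23.7, 30.1 and 30.9 CPM to 5.47, 4.07, 9.39 and 5.88 in DMEM/F12 and 4.06, 4.67, 2.95 and 5.24 in incubation medium, again without overlap. Its log2 fold changes were -2.19 (SE 0.22, adjusted p = 5.63e-07) and -2.74 (SE 0.23, adjusted p = 9.54e-08).

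FZD1 averaged 13.8 ± 4.43 CPM in fresh cells, 5.90 ± 1.73 in DMEM/F12 and 7.75 ± 3.76 in incubation medium. It was called lower in both (log2 fold change -1.22 and -0.84, adjusted p = 0.0053 and 0.0367). The incubation medium call was lost when only whole-count genes were fitted (-0.75, adjusted p = 0.0534) and without fresh replicate 2, 3 or 4 or incubation medium replicate 1 or 2 (adjusted p 0.0633 to 0.124; range over all alternatives 0.000202 to 0.124). FZD3 averaged 33.2 ± 3.65, 28.5 ± 2.29 and 23.5 ± 2.79 CPM and was called only in incubation medium (log2 fold change -0.50, adjusted p = 0.00118). In DMEM/F12 its log2 fold change was -0.22 (adjusted p = 0.0901), and with the block adjusted p was 0.034 (range over all alternatives 0.0311 to 0.328). FZD6 averaged 40.7 ± 4.30, 42.7 ± 4.29 and 37.1 ± 4.56 CPM and was not called (adjusted p = 0.594 and 0.291).

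The R-spondin receptors separated. LGR5 (ENSSSCG00025048215), a Wnt target and stem cell marker in several epithelia, was nearly constant in fresh cells at 49.2, 44.3, 49.4 and 48.6 CPM. It stood at 3.89, 2.32, 2.78 and 1.68 CPM in DMEM/F12 and at 3.46, 3.60, 3.94 and 2.82 in incubation medium, which is 5.58% and 7.22% of the fresh mean. The log2 fold changes were -4.16 (SE 0.18, adjusted p = 2.02e-10) and -3.78 (SE 0.17, adjusted p = 3.81e-10). LGR6 fell likewise, from 123 counts in fresh cells to 14 and 16 counts, or 13.2-fold (95% interval 7.58 to 24.8) and 11.1-fold (6.57 to 20.03) lower levels. LGR4 (ENSSSCG00025068730) measured 98.8, 102.4, 84.0 and 96.8 CPM in fresh cells, 81.7, 82.0, 84.8 and 84.3 in DMEM/F12 and 62.0, 59.0, 41.2 and 59.2 in incubation medium. It overlapped the fresh cells in DMEM/F12 (log2 fold change -0.20, adjusted p = 0.125) and lay below them in incubation medium (-0.79, SE 0.11, adjusted p = 2.25e-05). Without incubation medium replicate 3, whose library enters the shared estimate of spread, the DMEM/F12 value was called as well (-0.18; adjusted p over all alternatives 0.0475 to 0.377). The ligands RSPO1, RSPO2, RSPO3 and RSPO4 had 2, 2, 1 and 0 counts in all 12 libraries.

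RNF43 (ENSSSCG00025026767), the membrane ubiquitin ligase that removes Frizzled receptors and is itself a Wnt target, fell in both media. It measured 21.4, 19.0, 18.0 and 21.9 CPM in fresh cells, 4.62, 4.07, 4.63 and 3.84 in DMEM/F12 and 7.52, 6.41, 7.38 and 11.6 in incubation medium. The 3 groups did not overlap, at log2 fold changes of -2.22 (SE 0.18, adjusted p = 7.4e-08) and -1.29 (SE 0.17, adjusted p = 8.71e-06). AXIN1, a scaffold of the beta-catenin destruction complex, averaged 41.3 ± 5.70, 43.8 ± 3.27 and 38.6 ± 1.00 CPM and was not called (adjusted p = 0.456 and 0.379). No named row carried AXIN2, ZNRF3, DKK1, LRP5 or LRP6, which were not analysed here.

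The 3 TCF/LEF factors with a named row moved apart, and TCF7L1 had no such row. TCF7 (ENSSSCG00025049730) rose from 16.7, 15.4, 13.3 and 22.1 CPM in fresh cells to 64.9, 55.3, 67.3 and 53.7 in DMEM/F12 and 32.8, 34.8, 35.9 and 52.4 in incubation medium. The 3 groups did not overlap, and the log2 fold changes were 1.84 (SE 0.17, adjusted p = 3.15e-07) and 1.21 (SE 0.17, adjusted p = 2.2e-05). TCF7L2 averaged 187.2 ± 16.0 CPM in fresh cells, 104.0 ± 6.63 in DMEM/F12 and 101.7 ± 7.04 in incubation medium (log2 fold change -0.85 and -0.88, adjusted p = 6e-07 and 4.06e-07). Its counts were not whole in 4 of 12 libraries. LEF1 averaged 2.75 ± 0.75, 0.515 ± 0.34 and 0.420 ± 0.18 CPM and was called lower in both (log2 fold change -2.37 and -2.68, adjusted p = 0.000106 and 5.12e-05).

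**Figure D4:**
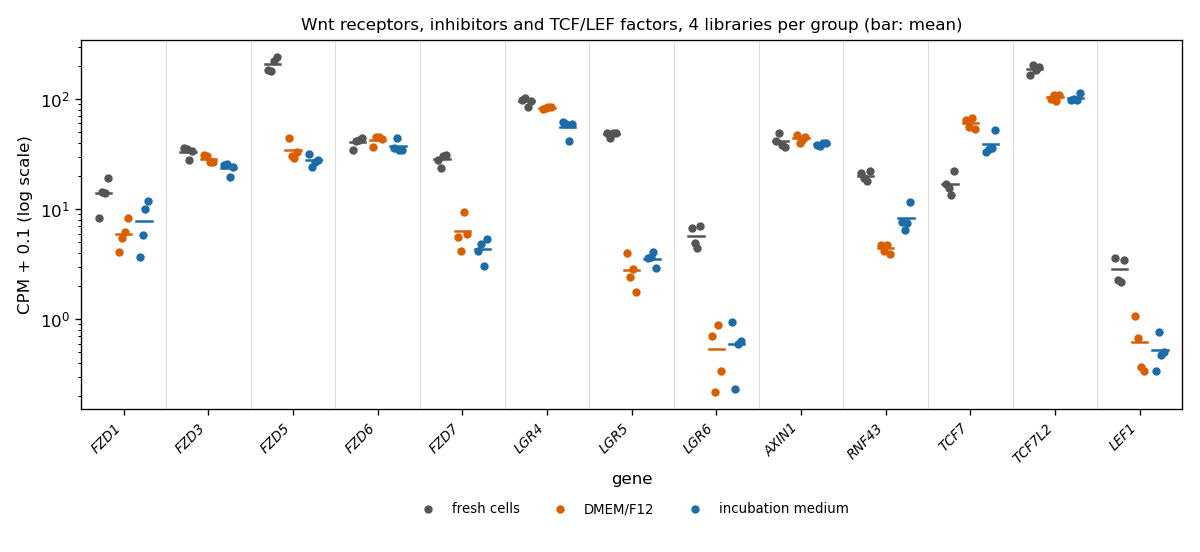
CPM (plus 0.1, log axis) of the 13 tested Wnt receptors, RNF43, AXIN1 and TCF/LEF factors in each library of fresh cells (grey), DMEM/F12 (orange) and incubation medium (blue) spheroids; bars are group means of 4 libraries. LGR5, LGR6, FZD5 and FZD7 lie lower in both kinds of spheroid, and TCF7 lies higher.

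The SFRP genes, DKK2, DKK4 and NOTUM, the secreted Wnt antagonists among the 64 genes, had few counts, and none of them passed the filter. SFRP1 (ENSSSCG00025035126) had 6, 3, 2 and 5 counts in fresh cells, 16, 9, 7 and 3 in DMEM/F12 and 8, 1, 3 and 4 in incubation medium, with overlapping groups. SFRP5 had 2 counts in all fresh libraries, 54, 12, 16 and 8 in DMEM/F12 and 5, 4, 2 and 5 in incubation medium. The ratio of summed levels in DMEM/F12 to fresh cells was 29.95 (95% interval 8.06 to 251, counting error only), and DMEM/F12 replicate 1 held 54 of the 90 counts. In a fit without the filter SFRP5 was called higher in DMEM/F12 (adjusted p = 4.78e-05). SFRP4 was called lower there in that fit (-3.10, adjusted p = 0.00756), and NOTUM and SFRP2 were called lower in incubation medium (-3.35 and -1.15, adjusted p = 0.00401 and 0.0406). NKD1, an intracellular Wnt feedback inhibitor, had 6 to 15 counts in fresh libraries and at most 6.25 and 4 in the spheroids, and the receptor ROR1 3 to 17 counts against at most 4 and 3. Both were called lower in each medium in that fit (adjusted p = 0.000721 and 0.000601 for NKD1 and 0.00141 and 0.00227 for ROR1). SFRP2 had 3 to 14 counts in every library. Of the 27 genes not tested, 18 had at most 3 counts in every library, 3 of them 0 throughout.

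Of 30 other intracellular or membrane components of Wnt signalling, 23 were tested; 7 were called higher and 7 lower in DMEM/F12 and 6 higher and 10 lower in incubation medium (median log2 fold change -0.16 and -0.23), again no larger a share than the 70.6% and 71.7% called over all tested genes. CSNK1A1, a kinase of the destruction complex, rose from 322.1 CPM in fresh cells to 409.2 and 414.4. CTNNB1, which encodes beta-catenin, averaged 323.3, 351.5 and 292.4 CPM in fresh cells, DMEM/F12 and incubation medium. It was not called against fresh cells in either medium. Between the media it was called lower in incubation medium (edgeR, log2 fold change -0.27, SE 0.08, adjusted p = 0.0257). TLE1, a corepressor of TCF factors, averaged 97.5, 101.8 and 69.6 CPM, fell in incubation medium (log2 fold change -0.49) and was not called in DMEM/F12 (0.06).

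Of 14 further extracellular inhibitors 5 were tested, with 2 higher and 2 lower in DMEM/F12 and 1 higher and 2 lower in incubation medium. The background is 70.6% and 71.7% of all tested genes called, and 5 genes are too few to compare with it. DKK3, a secreted member of the Dickkopf family, had 0, 1, 0 and 3 counts in fresh cells, 304, 340, 394 and 383 in DMEM/F12 and 30, 15, 28 and 26 in incubation medium. No groups overlapped: DKK3 rose in both media (adjusted p = 5.19e-10 and 9.2e-06) and was lower in incubation medium than in DMEM/F12 by a log2 fold change of -3.79 (SE 0.22, adjusted p = 1.89e-07). SOSTDC1, a secreted BMP and Wnt antagonist, had 30, 13, 10 and 13 counts in fresh cells and 0 in every spheroid library (adjusted p = 7.59e-05 and 8.03e-05). DKKL1 averaged 38.5, 35.5 and 36.2 CPM and was not called (adjusted p = 0.395 and 0.515); SOSTDC1 and DKKL1 are named after their values were seen. KREMEN1, a DKK receptor, rose in DMEM/F12 from 90.8 to 123.2 CPM and averaged 91.6 in incubation medium, where it was not called. APCDD1, a membrane inhibitor and Wnt target, fell from 35.5 CPM to 7.54 and 7.72. Of 15 genes listed as targets of these pathways 7 were tested, with 5 higher and 0 lower in DMEM/F12 and 3 higher and 1 lower in incubation medium, beside the same background. Among them CCND1, the G1 cyclin, rose from 52.6 CPM to 200.6 and 136, and ID3, also a BMP target, from 23.9 to 294.7 and 153.6. ID2 averaged 196.8, 204.7 and 135.3 CPM in fresh cells, DMEM/F12 and incubation medium. It was not called in DMEM/F12 (log2 fold change 0.06, adjusted p = 0.737) and fell in incubation medium (-0.54, adjusted p = 0.00367).

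The media were then compared with each other. Of the 37 tested genes 12 were called lower and 3 higher in incubation medium than in DMEM/F12, where 12.3% of all tested genes were called lower and 12.7% higher. Groups were free of overlap for 17 of these 37 genes, where 26.9% of all tested genes did not overlap. Among the calls, 6 of the 37 genes differed by 2-fold or more (5.48% of all tested genes): WNT2, WNT5B, WNT10B, LFNG and DLL4 lower, and WNT8B higher. The median log2 fold change was -0.30, against -0.0034 over all tested genes.

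WNT8B was higher in incubation medium by a log2 fold change of 4.49 (SE 0.40, adjusted p = 5.19e-06), with 273 counts against 12. The ratio of the summed levels was 23.7 (95% interval 13.3 to 46.4). RNF43 and WNT5A were the others called higher, at 0.93 (SE 0.19, adjusted p = 0.00215) and 0.75 (SE 0.16, adjusted p = 0.00297). None of these 3 genes had overlapping libraries.

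WNT5B fell by 1.96 (SE 0.28, adjusted p = 0.000177) and LFNG by 1.49 (SE 0.18, adjusted p = 5.43e-05) on the log2 scale from DMEM/F12 to incubation medium. WNT2 fell by 2.14 (SE 0.51, adjusted p = 0.00712), with DMEM/F12 replicate 3 inside the range of the other medium, and WNT10B by 1.91 (SE 0.40, adjusted p = 0.00288). The Notch ligands JAG1 and DLL4 were lower in incubation medium, at -0.82 (SE 0.12, adjusted p = 0.000176) and -1.44 (SE 0.35, adjusted p = 0.00782), as were the receptors NOTCH3 at -0.95 (SE 0.17, adjusted p = 0.000878) and NOTCH2 at -0.44 (SE 0.09, adjusted p = 0.00263). TCF7, LGR4 and HES6 were lower too, at -0.63, -0.59 and -0.48 (adjusted p = 0.00925, 0.00172 and 0.00201). WNT9A was called at -0.63 (adjusted p = 0.0253), and this call was lost with no filter (adjusted p = 0.0519), when fresh cells were left out of the fit (adjusted p = 0.0597), and without DMEM/F12 replicate 3 or 4 or incubation medium replicate 1 or 2 (adjusted p 0.0511 to 0.0789; range over all alternatives 0.0104 to 0.0789).

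Several genes that fell most against fresh cells were not called between the media. The log2 fold change from DMEM/F12 to incubation medium was 0.09 for HES1 (SE 0.16, adjusted p = 0.731), 0.03 for HEY2 (SE 0.25, adjusted p = 0.958) and -0.30 for FZD5 (SE 0.14, adjusted p = 0.141). With library totals in place of scaled totals the signs of HES1 and HEY2 turned, to -0.006 and -0.066. LGR5 was at 0.38 (SE 0.21, adjusted p = 0.221) and was called without DMEM/F12 replicate 1 (0.62, adjusted p = 0.038; range over all alternatives 0.038 to 0.525). FZD7 was at -0.55 (SE 0.24, adjusted p = 0.117) and was called without DMEM/F12 replicate 2 (-0.71, adjusted p = 0.0458; range over all alternatives 0.0458 to 0.374). With the replicate block HES4 (-0.60, adjusted p = 0.0209) and FZD3 (-0.28, adjusted p = 0.0232) were called lower in incubation medium, against adjusted p of 0.0669 and 0.0855 without it (ranges over all alternatives 0.0209 to 0.171 and 0.0232 to 0.235).

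**Figure D5:**
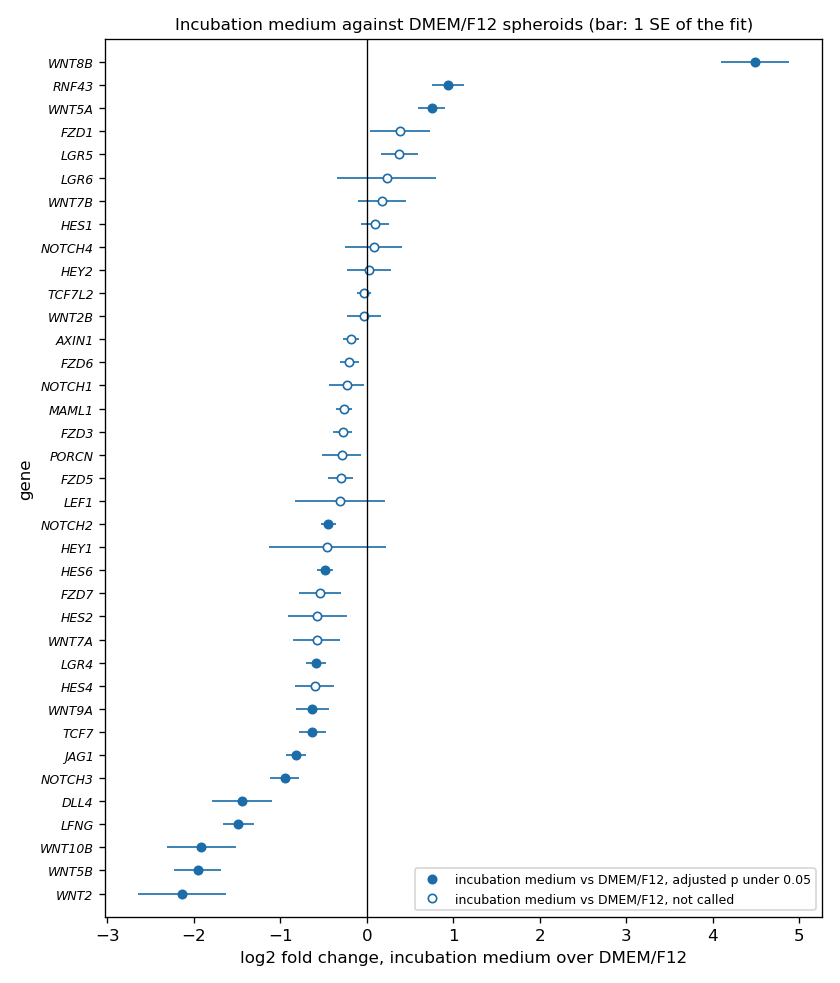
Log2 fold change of each of the 37 tested genes in incubation medium over DMEM/F12 spheroids, sorted by value; bars are 1 standard error of the fit and open points were not called. WNT8B stands at 4.49, and WNT2, WNT5B and WNT10B lie lowest.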

How the data were processed

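For each library the authors' deposited table gives a count per gene that behaves as an expected count: 19.1 to 20.5% of a library's nonzero counts were not whole. They also deposited CPM, per the file headers, which equalled count over library total to within 5e-06. The submitters' processing notes list fastp 0.24.0, STAR 2.7.11, SAMtools 1.22.1, featureCounts and Subread 2.1.1 with no roles; the genome build and any use of molecular identifiers are not given in the sources used here. How fractional counts arose is not stated, and amplified reads need not be independent molecules, so counting intervals cover counting error only. Gene names are those of the deposited table, in which 56.5% of gene rows have none. Of 82 pig gene symbols that the naming rule covers in RefSeq, 18 had no named row. These were AXIN2, DKK1, LRP5, LRP6, NKD2, ROR2, TCF7L1, ZNRF3, FZD2, FZD4, FZD8 and FZD10, and for Notch DLL3, HES3, HES7, JAG2, MAML2 and MAML3. Each of the 64 symbols stood on 1 row.

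Counts were rounded to whole numbers, and 92 spike-in rows were left out. Testing was done in R 4.3.3 with edgeR 4.0.16. Low genes were dropped by filterByExpr, totals were scaled by TMM, and the 12 libraries entered a single quasi-likelihood fit, with Benjamini-Hochberg adjustment over 14080 genes and calls at adjusted p under 0.05. Standard errors are the log2 fold change over the square root of F. Printed CPM use TMM-scaled totals. Ratios of summed counts carry exact 95% intervals. The fit was tested on simulated data. Alternatives were DESeq2 1.42.0, library totals, no filter, a mean of at least 10 counts, a replicate block, only the groups compared, only whole counts, and leaving out each library. Same-numbered libraries of different groups deviated together (correlation of log2 deviations 0.196 to 0.516 in 12 pairs, -0.319 to 0.024 in 36 others), so the numbers pair the libraries. What a number marks is not said in the labels. The standard errors and p-values of the fit reported leave this pairing out, and only the replicate block takes it in.

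Values in every library are given for genes called without overlap at a mean of at least 5 CPM (up to 8 per direction and comparison). The same was done for WNT5B, LGR5, NOTCH1, NOTCH2, NOTCH3, JAG1, HES1, HEY1 and SFRP1. For WNT5B in DMEM/F12 a range with the order of the replicates is given instead. The genes and lists were chosen with earlier results of these data known.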

Additional observations from a re-analysis of the deposited data

Results flagged for a closer look

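Of the 111 sets of 4 libraries formed by the 37 tested genes and 3 groups, 6 had a library far from the others by Dixon's criterion, which chance alone meets in about 1 of 20. In incubation medium these were JAG1 in replicate 1 (52.0 CPM, others 40.4 to 42.3), LGR4 in replicate 3 (41.2, others 59.0 to 62.0), and TCF7 and TCF7L2 in replicate 4 (52.4, others 32.8 to 35.9, and 112.3, others 97.7 to 99.1). In fresh cells they were LGR5 in replicate 2 (44.3, others 48.6 to 49.4) and WNT9A in replicate 3 (13.5, others 11.9 to 12.01).

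For 3 genes the change against fresh cells was called in opposite directions in the media, and the difference between the media was itself called. WNT8B was higher in incubation medium than in DMEM/F12 by a log2 fold change of 4.49, WNT5B was lower at -1.96 and LFNG lower at -1.49. For WNT8B and WNT5B the smaller of the changes against fresh cells, in incubation medium, lost its call without single libraries.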

How the results depend on the processing

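Of 111 results (37 genes in 3 comparisons), 73 were called; 66 of these held under all 19 alternatives that tested the gene, and no fold change moved by more than 1.44 times. The 7 calls lost in some alternative were those of NOTCH1, MAML1, FZD1, WNT5B and WNT8B in incubation medium and WNT2 in DMEM/F12 against fresh cells, and WNT9A between the media. MAML1 lost its call with DESeq2 (-0.25, adjusted p = 0.0538), without the filter, with only the groups compared, and without any of fresh replicates 2 and 4, DMEM/F12 replicates 1, 2 and 4 and incubation medium replicates 2, 3 and 4 (adjusted p 0.0503 to 0.195). Testing only genes with whole counts left 23 of the 37 genes, and the counts called lower against fresh cells became 13 in DMEM/F12 and 15 in incubation medium; FZD1 in incubation medium was still tested and lost its call (-0.75, adjusted p = 0.0534). Without 1 library the 6 counts of called genes ranged from 6 to 8 higher and 20 to 24 lower in DMEM/F12, from 4 to 5 and 24 to 29 in incubation medium, and from 3 to 4 and 12 to 14 between the media. The replicate block gave 7 higher and 23 lower in DMEM/F12, 5 and 27 in incubation medium and 3 and 14 between the media. It added 6 calls, those of WNT2B, PORCN, FZD3 and HES4 given above, and changed no other call. Library totals also gave calls for AXIN1, MAML1, FZD3 and HES4 between the media (-0.28, -0.35, -0.37 and -0.70) and for PORCN in DMEM/F12. With only the groups compared, PORCN and LGR4 in DMEM/F12 and WNT2B in incubation medium were called. PORCN in DMEM/F12 was called without the filter too, and DESeq2 called HES4 between the media. Single libraries added calls for FZD3 in DMEM/F12 (-0.29 without fresh replicate 3), HES4 between the media (-0.70 and -0.76 without DMEM/F12 replicate 3 and incubation medium replicate 4), PORCN in DMEM/F12 (0.50 without incubation medium replicate 1 or 3) and WNT2B (-0.61 in DMEM/F12 without its replicate 4, -0.40 in incubation medium without DMEM/F12 replicate 3 or 4).

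No called value turned its sign. Signs turned for 12 results that were not called. With library totals HES1, HEY2 and NOTCH4 between the media became -0.006, -0.066 and -0.02, and with a mean of at least 10 counts MAML1 in DMEM/F12 became -0.018. Leaving out 1 library gave between the media -0.111 to 0.238 for HEY2, -0.605 to 0.172 for LEF1, -0.137 to 0.643 for LGR6, -0.16 to 0.393 for NOTCH4, -0.201 to 0.21 for WNT2B and -0.042 to 0.418 for WNT7B. Against fresh cells it gave -0.033 to 0.057 for MAML1 and -0.344 to 0.117 for WNT7B in DMEM/F12, and -0.151 to 0.002 for AXIN1, -0.062 to 0.371 for PORCN and -0.085 to 0.188 for WNT7B in incubation medium. The cause was not tested. Depth limits HEY1, LGR6, LEF1, WNT8B and WNT10B, which have few counts in at least 1 group, and the 27 genes not tested.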
